A study of Mus musculus with 18 samples.

Results

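The S100A genes encode small calcium-binding proteins, and 10 of them (S100a1, S100a3, S100a4, S100a6, S100a8, S100a9, S100a10, S100a11, S100a13 and S100a14) were followed by symbol among the 54532 genes of the count table. All 10 members were found in the table, and all 10 passed the filter on low counts. The table covers 18 mouse tumours raised from PB2, a line of mouse mammary cancer cells. Of these, 8 carried the genotype p95HER2, a truncated form of the receptor HER2, and 10 carried the genotype EV. All mice of both groups received the doxycycline diet DOX625. The labels give no host strain, age or sex and do not say what drives p95HER2 expression or whether each tumour came from its own mouse. The p-values therefore speak of the variation among these 18 samples. Libraries held 32686558 to 34804640 counts in p95HER2 tumours and 35030920 to 38464541 in EV tumours, and these ranges do not overlap, so depth and genotype cannot be told apart.

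S100 proteins work as pairs. Binding of calcium through EF-hand motifs opens a surface that docks onto other proteins, among them annexins, myosin and p53. Some members also leave the cell and act on receptors of inflammation such as RAGE and TLR4. In breast tissue and its tumours they are known from epithelial cells, fibroblasts and infiltrating myeloid cells. Here S100a8 rose in p95HER2 tumours, with a call that held in 32 of 33 alternative fits. S100a14 fell, with a call near the threshold that held in 18 of 33. The abundant members S100a6, S100a10 and S100a11 gave no call.

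Reads counted under Erbb2, the mouse gene for HER2, were 122 to 231 CPM (read counts scaled to 1000000 per library, with TMM-adjusted totals) in p95HER2 tumours and 60.4 to 74.9 CPM in EV tumours, without overlap. The epithelial marker Epcam stood at 660 ± 23.9 CPM in p95HER2 and 638 ± 43.9 CPM in EV tumours (SD, n = 8 and n = 10), so the labelled epithelial origin was visible in both groups. The tumour EV 1 stood apart from the other EV tumours in its keratinocyte, epithelial and skeletal muscle markers, and the tag number of p95HER2 1 lies far from the tag numbers of all other tumours. Where the call of a member changed without these tumours, this is stated, for some with the value without them. Marker levels were not tested again without them. Tumours with the same group label were otherwise kept as separate samples.

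The genes lie on chromosome 3 (mm10, coordinates from a GENCODE annotation of that build). The main cluster of 8 members spans bases 90511034 to 90695721, and S100a11 and S100a10 lie at 93520488 to 93564643. S100a8 (ENSMUSG00000056054) spans 90668978 to 90670035 on the plus strand, and S100a9 (ENSMUSG00000056071) spans 90692632 to 90695721 on the minus strand. S100a14 (ENSMUSG00000042306) spans 90526856 to 90528837 on the plus strand. The promoters of S100a8 and S100a9 are shown because these genes encode the chains of one complex and are compared below. Each runs from 250 bases before to 50 bases after the annotated start (RefSeq, GRCm38.p6), 5′ to 3′ on the gene's own strand, and capitals mark matches of the motifs TATAAA and TTGCNNAA. For S100a8 this RefSeq start lies downstream of the GENCODE start given above, so part of its window lies inside the GENCODE span. For S100a9 both annotations give the same start. The S100a8 window is chr3:90668821-90669120 on the plus strand and the S100a9 window chr3:90695672-90695971 on the minus strand.
S100a8: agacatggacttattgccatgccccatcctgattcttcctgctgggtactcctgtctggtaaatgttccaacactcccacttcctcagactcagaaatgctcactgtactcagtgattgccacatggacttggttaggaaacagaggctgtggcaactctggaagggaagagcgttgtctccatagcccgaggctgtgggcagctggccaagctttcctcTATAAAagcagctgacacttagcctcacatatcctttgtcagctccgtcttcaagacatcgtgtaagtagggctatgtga
S100a9: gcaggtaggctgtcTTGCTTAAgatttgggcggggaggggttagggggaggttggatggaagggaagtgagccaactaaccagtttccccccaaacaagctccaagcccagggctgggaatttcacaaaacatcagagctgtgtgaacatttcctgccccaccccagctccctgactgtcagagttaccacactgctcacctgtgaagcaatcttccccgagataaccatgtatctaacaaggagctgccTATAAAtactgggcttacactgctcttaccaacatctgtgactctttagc
Windows were found for 8 of the 10 members, in 11 windows. Motifs were searched on both strands, and no matches overlapped one another. The TATA box sequence TATAAA began at position -30 from the annotated start of S100a8 and at the annotated start itself, position 1, in S100a9. It also lay at position -31 of S100a4 and, in 1 window of S100a3, at position -52, and 13.6% of all 32851 promoter windows of this length hold it. The C/EBP motif TTGCNNAA occurred in the S100a9 window at position -236 and in 10.8% of all windows. The AP-1 motif TGANTCA occurred only in the S100a11 window among the members' windows, at positions -136 and -38 and as tgagtca both times, and in 7.8% of all windows. The STAT motif TTCNNNGAA, found in 8.3% of all windows, had no match in the members' windows.

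Of the 10 members, 1 was called higher and 1 lower in p95HER2 tumours, where a call is an adjusted p under 0.05 in edgeR's quasi-likelihood test with Benjamini-Hochberg (BH) adjustment over 17123 genes. Over all genes tested 5.73% were called higher, 4.45% lower and 10.2% in either direction. With 10 members these counts are near that background and are no result about the family as a whole. The median log2 fold change (p95HER2 minus EV, as everywhere below) was 0.09 over the members and -0.01 over all genes tested.

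**Figure D1:**
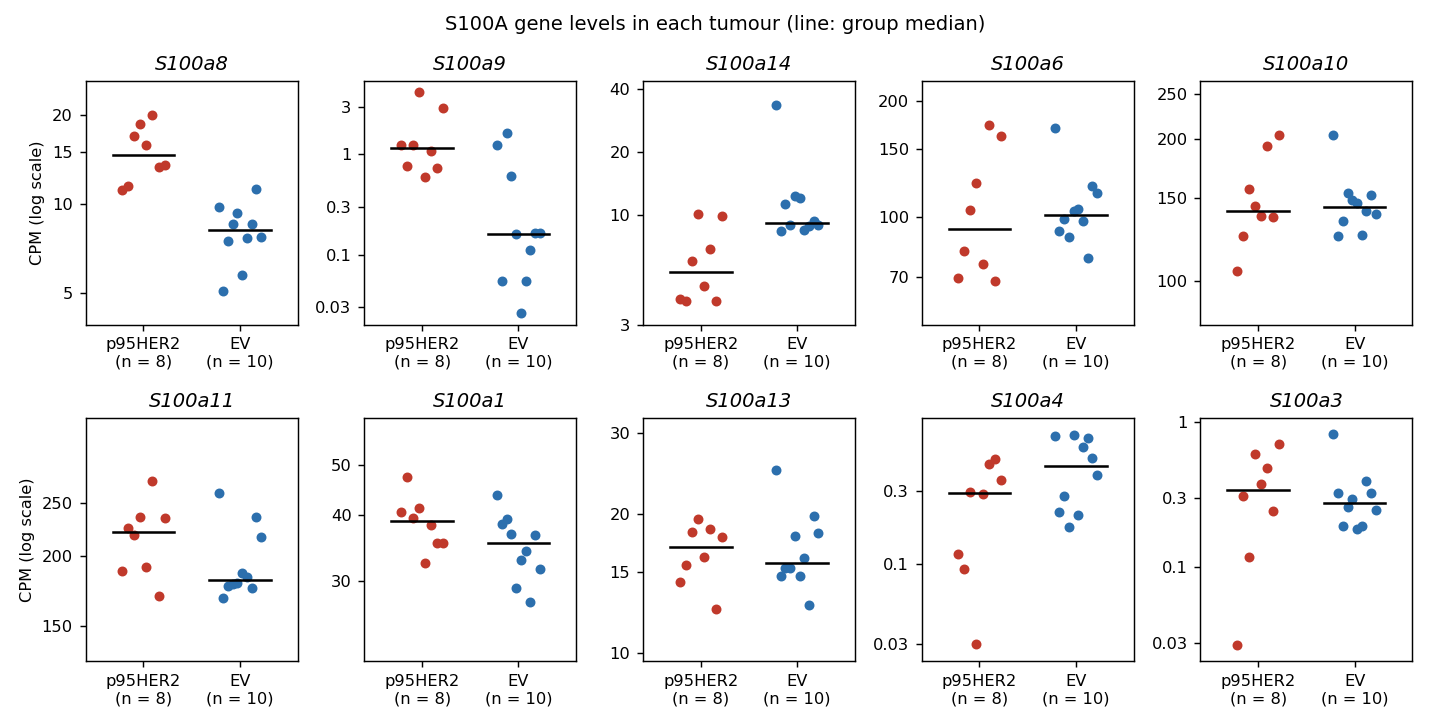
CPM of each S100A gene (log scale, a panel per gene) in p95HER2 tumours (red, n = 8) and EV tumours (blue, n = 10); each point is a tumour and the line is the group median. For S100a8 the p95HER2 tumours sit at 11.1 to 20 CPM and 9 of the 10 EV tumours lie below all of them, while for S100a6 and S100a10 the groups lie over each other.

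S100a8 encodes a chain of calprotectin, the zinc- and calcium-binding alarmin that neutrophils and monocytes carry in bulk and that epithelial cells make under stress. Its level ran from 11.1 through a median of 14.6 to 20 CPM in p95HER2 tumours, against 5.06, 8.12 and 11.2 CPM in EV tumours. Each of the 8 p95HER2 tumours exceeded the EV median, and 9 of 10 EV tumours lay below the lowest p95HER2 tumour; EV 8 alone reached that range. S100a8 rose 1.86-fold (edgeR BH-adjusted p = 0.000575), which is 0.90 on the log2 scale with an SE of 0.14. Every fit with 1 tumour left out kept the call. In bulk samples, a change in the number of cells that make an mRNA and a change in the mRNA per cell cannot be told apart.

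S100a9 encodes the partner chain of calprotectin and is normally made by the same myeloid cells. It was scarce: 21 to 139 reads in p95HER2 tumours and 1 to 60 reads in EV tumours. This corresponds to 0.598, 1.15 and 4.15 CPM as lowest, median and highest in p95HER2 tumours, against 0.0259, 0.161 and 1.65 CPM in EV tumours. EV 1, EV 2 and EV 3 held 45, 60 and 21 reads and fell within the p95HER2 range, whereas the other EV tumours held 1 to 6 reads. Each of the 8 p95HER2 tumours exceeded the EV median. S100a9 passed the filter on low counts through the p95HER2 tumours, where it was higher. With a log2 fold change of 1.91 and a wide error (SE 0.64), S100a9 was not called (edgeR BH-adjusted p = 0.0655). It was called without EV 1 (log2 fold change 2.25, edgeR BH-adjusted p = 0.0291) and without EV 2 (2.47, edgeR BH-adjusted p = 0.0184), and in 10 of 32 alternative fits in all, whose adjusted p ran from 0.00572 to 1.

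The ratio of S100a8 to S100a9 reads does not depend on how libraries are scaled. It was lower in p95HER2 tumours, but whether the difference passed depended on the constant added to the counts. S100a8 reads outnumbered S100a9 reads in every tumour, by 4.496 to 26.4 times with a median of 14.4 in p95HER2 tumours and by 4.53 to 221 times with a median of 63.8 in EV tumours. The log2 ratio of S100a8 to S100a9 reads (0.5 added to each count) was 3.53 ± 0.93 in p95HER2 tumours and 5.25 ± 1.69 in EV tumours (SD, n = 8 and n = 10). The difference of -1.72 had p = 0.0227 (two-sided, exact permutation, 43758 ways of assigning tumours to groups). With 5 counts added in place of 0.5 the difference was -1.02 (exact permutation p = 0.0558) and no longer passed. EV 1, EV 2 and EV 3, at 7.93, 4.53 and 14.2 S100a8 reads per S100a9 read, lay inside the p95HER2 range. Within groups the levels of the chains were not tied closely: Pearson's r was 0.29 in p95HER2 tumours (exact permutation, adjusted p = 0.635; Spearman's rho 0.17, adjusted p = 0.847) and 0.30 in EV tumours (permutation test, adjusted p = 0.574; rho 0.48, adjusted p = 0.463). Without the 2 tumours farthest from the group median of S100a8, r was 0.48 in p95HER2 and -0.11 in EV tumours. Here and below, the tumours left out are the farthest in a single variable. That variable is the marker level, Erbb2 or, for a pair of members, the first named. Tumours far out only in the other variable were kept.

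**Figure D2:**
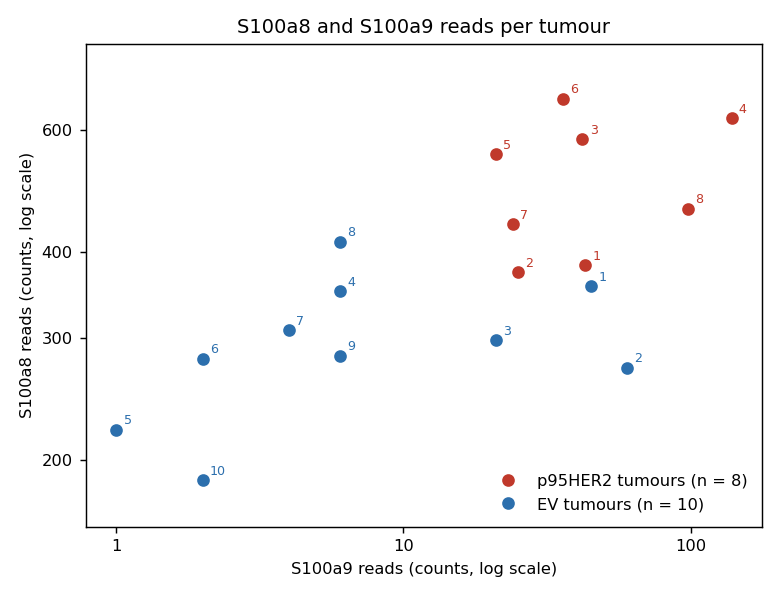
Reads counted under S100a8 (vertical, log scale) and S100a9 (horizontal, log scale) in p95HER2 tumours (red, n = 8) and EV tumours (blue, n = 10), with the replicate number beside each point. The p95HER2 tumours have 21 to 139 S100a9 reads; 7 of the 10 EV tumours have 1 to 6, and EV 1, EV 2 and EV 3 lie further right.

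Most markers of neutrophils, the main carriers of calprotectin, were low in both groups. Mmp9, a protease that other cells also make, was the exception, at 14.1 ± 8.78 CPM in p95HER2 and 15.1 ± 4.36 CPM in EV tumours (BH-adjusted p = 0.866, edgeR). Of 15 neutrophil markers 8 passed the filter, and 1 was called, Clec4d, a receptor of myeloid cells, at 3.09 ± 0.64 CPM in p95HER2 and 4.93 ± 1.97 CPM in EV tumours (log2 fold change -0.67 ± 0.20 SE; BH-adjusted p = 0.0328, edgeR). Camp, a granule peptide, stood at 0.474 ± 0.247 and 0.259 ± 0.0897 CPM in p95HER2 and EV tumours (edgeR BH-adjusted p = 0.0672), and the receptor Csf3r at 3.39 ± 0.98 and 4.44 ± 1.57 CPM (BH-adjusted p = 0.231, edgeR). Cxcr2, the chemokine receptor of neutrophils, was under the filter, with 77 reads over the 8 p95HER2 tumours, none of them at 0, and 24 reads over the 10 EV tumours, 5 of them at 0. Ly6g and Mpo, which define mature and early neutrophils, had 4 reads each over all 18 tumours; Ly6g was at 0 in 7 of 8 p95HER2 and 10 of 10 EV tumours, and Mpo in 8 of 8 and 7 of 10. The mean log2(CPM + 0.5) over the neutrophil markers ranged from 0.13 to 0.53 in p95HER2 tumours and from 0.07 to 0.64 in EV tumours, with a mean of 0.27 in each group. That mean joins markers of both directions: of the 8 tested, 3 had a positive and 5 a negative log2 fold change. The markers under the filter, Cxcr2 among them, count in it with the same weight as the tested ones. With that level as a covariate, the log2 fold change of S100a8 was 0.89 (edgeR BH-adjusted p = 0.000435). A level of such mixed markers cannot show the part of neutrophils in S100a8. The part of Cxcr2-bearing cells in the levels of S100a8 and S100a9 was not tested.

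Macrophage markers were lower in p95HER2 tumours. All 12 had a negative log2 fold change and 7 were called lower, and their level was 4.53 ± 0.39 in p95HER2 and 5.19 ± 0.34 in EV tumours (difference -0.66, exact permutation, adjusted p = 0.00503 over 10 marker levels). With the macrophage level as a covariate S100a8 kept its size and its call (log2 fold change 0.91, edgeR BH-adjusted p = 0.0261), in a fit that called 180 genes in all, against 1743 without it. All 8 p95HER2 tumours lay below the EV median of that level, so such a fit cannot cleanly separate the level from genotype. The part of macrophages and monocytes in S100a8 was not tested. T cell markers were also lower in p95HER2 tumours, with a level of 1.402 ± 0.60 against 2.24 ± 0.76 in EV tumours (exact permutation, adjusted p = 0.0446), and 2 of 8, Cd2 and Cd4, were called.

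**Figure D3:**
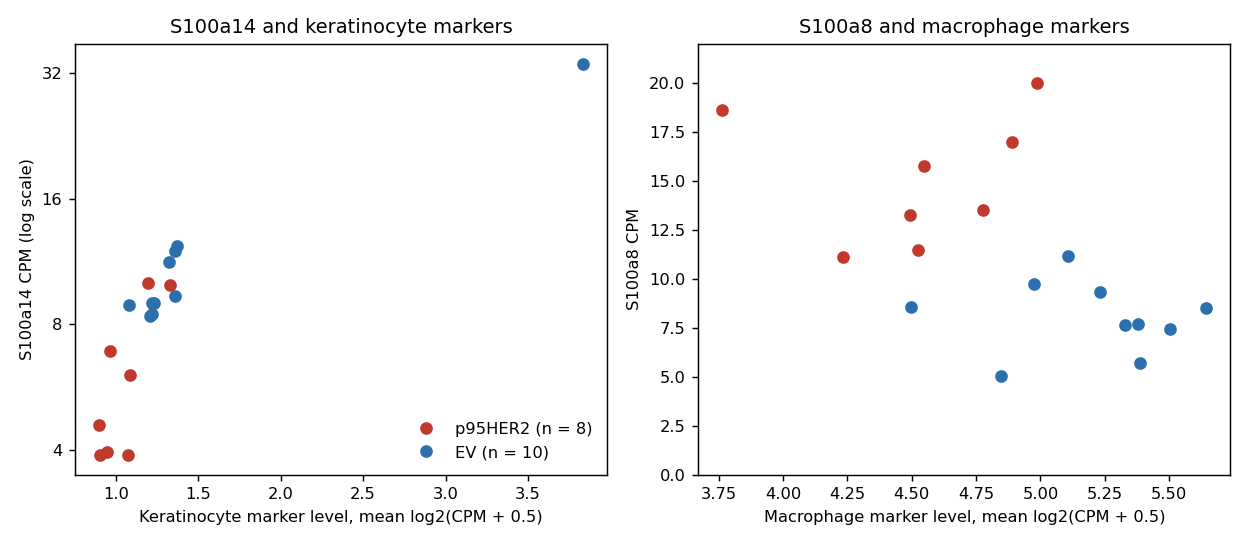
Left, S100a14 (CPM, log scale) against the keratinocyte marker level; right, S100a8 (CPM) against the macrophage marker level; levels are the mean log2(CPM + 0.5) of the markers, p95HER2 tumours red (n = 8), EV tumours blue (n = 10). EV 1 stands alone at a keratinocyte level of 3.84 and 33.7 CPM of S100a14, and p95HER2 tumours combine a macrophage level of 3.76 to 4.98 with 11.1 to 20 CPM of S100a8, against 4.496 to 5.64 and 5.06 to 11.2 CPM in EV tumours.

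S100a14 is made by epithelial cells, from skin to breast, and sits at the inner face of the cell membrane. Its level ran from 3.89 through a median of 5.33 to 10.1 CPM in p95HER2 tumours, against 8.39, 9.20 and 33.7 CPM in EV tumours. Of the 8 p95HER2 tumours 6 lay below all EV tumours, while p95HER2 4 and p95HER2 8, at 10.1 and 9.95 CPM, lay inside the EV range. S100a14 fell to 6.17 ± 2.62 CPM in p95HER2 tumours, against 12.3 ± 7.68 CPM in EV tumours (log2 fold change -0.99 ± 0.30 SE; BH-adjusted p = 0.0426, edgeR). The call was near the threshold. It ended without any of p95HER2 1, 2, 3, 5, 6 or 7 or EV 2, 4, 5, 7 or 9 (edgeR BH-adjusted p up to 0.0845), and with the macrophage level as a covariate (-1.19, edgeR BH-adjusted p = 0.195).

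EV 1 moved the size of that fall. Without EV 1 the log2 fold change of S100a14 was -0.68 and still called (edgeR BH-adjusted p = 0.0269), and without both EV 1 and p95HER2 1 it was -0.60 and not called (edgeR BH-adjusted p = 0.0529). EV 1 also carried the highest keratinocyte level, 3.84, where the other EV tumours ran up to 1.37 and p95HER2 tumours from 0.90 to 1.33. The mean level was lower in p95HER2 tumours, 1.05 ± 0.15 against 1.52 ± 0.82 in EV tumours. The difference of -0.47 (exact permutation, adjusted p = 0.0424) includes EV 1 and was not tested without it. The medians were 1.02 in p95HER2 and 1.28 in EV tumours, and 7 of 8 p95HER2 tumours lay below the EV median. Of the 8 keratinocyte markers 5 were tested and 2 were called lower, Krt79 (log2 fold change -1.29, edgeR BH-adjusted p = 0.0027) and Sbsn (-0.92, edgeR BH-adjusted p = 0.00495). None of the 8 was at 0 in all tumours, though Krt1 was at 0 in 7 of 8 p95HER2 and 4 of 10 EV tumours. With the keratinocyte level as a covariate the log2 fold change of S100a14 was -0.52 (edgeR BH-adjusted p = 0.0455). The epithelial level was 6.81 ± 0.21 in p95HER2 and 6.81 ± 0.24 in EV tumours, but 2 of its 10 markers were called in opposite directions. Krt19, a simple-epithelium keratin, fell to 62.0 ± 22.2 CPM in p95HER2 tumours, against 142 ± 35.5 CPM in EV tumours (log2 fold change -1.20 ± 0.20 SE; BH-adjusted p = 0.0018, edgeR). Krt7, another such keratin, rose to 74.2 ± 38.3 CPM in p95HER2 tumours, against 36.5 ± 18.4 CPM in EV tumours (log2 fold change 1.02 ± 0.31 SE; BH-adjusted p = 0.0426, edgeR). The part of these keratins' cells in S100a14 was not tested. With the epithelial level as a covariate S100a14 was called at -0.96 (edgeR BH-adjusted p = 0.00195).

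Within EV tumours S100a14 followed the keratinocyte level (Pearson's r = 0.96, permutation test, p = 0.00095, adjusted p = 0.0364; Spearman's rho = 0.95, p = 0.00015, adjusted p = 0.0345; n = 10), and r was 0.85 without the 2 farthest tumours. Within p95HER2 tumours r was 0.79 (exact permutation, adjusted p = 0.15; rho 0.62, adjusted p = 0.389; n = 8) and 0.25 without the 2 farthest. S100a14 also ran with Erbb2 in p95HER2 tumours without passing the adjustment (r = 0.91, exact permutation p = 0.00263, adjusted p = 0.0605; rho = 0.81, adjusted p = 0.228; r without 2 tumours 0.92). These adjusted values, and all others for correlations, are over 230 correlations.

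S100a10, S100a11 and S100a6 were the most abundant members, and none was called. S100a10 (p11) holds annexin A2 in a complex at the plasma membrane that gathers plasminogen and its activators. It ran from 105 through 141 to 204.5 CPM in p95HER2 tumours and from 124 through 144 to 204 CPM in EV tumours. The groups overlapped fully, and the log2 fold change was 0.03 (approximate 95% interval -0.19 to 0.26, edgeR BH-adjusted p = 0.893). S100a11, a partner of annexin A1, ran from 170 through 222 to 274 CPM in p95HER2 tumours, against 168, 181 and 260 CPM in EV tumours. Of the 8 p95HER2 tumours 7 lay above the EV median, but the log2 fold change of 0.15 was not called (approximate 95% interval -0.04 to 0.33, edgeR BH-adjusted p = 0.349).

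S100a6 (calcyclin), a protein of proliferating and stressed cells that binds the ubiquitin-pathway protein CacyBP, ran from 68.5 through 93.3 to 174 CPM in p95HER2 tumours, against 78.4, 102 and 170.5 CPM in EV tumours. The group means were nearly equal, 107 ± 41.9 and 107 ± 25.4 CPM (SD, n = 8 and n = 10; log2 fold change 0.0035, approximate 95% interval -0.38 to 0.39, edgeR BH-adjusted p = 0.994). Among p95HER2 tumours, however, S100a6 was high where Erbb2 was high: Pearson's r was 0.93 (exact permutation p = 0.000942, adjusted p = 0.0364) and Spearman's rho 0.90 (exact permutation p = 0.00456, adjusted p = 0.131; n = 8), and r was 0.92 without the 2 farthest tumours. The same relation in EV tumours, where Erbb2 varied little, had r = 0.77 (permutation test, adjusted p = 0.126; rho 0.75, adjusted p = 0.228; n = 10; r without 2 tumours 0.63). The difference between these correlations was not tested. Other members also ran with Erbb2 in p95HER2 tumours without passing (exact permutation, adjusted p from 0.0605 to 0.199). For these r was 0.91 for S100a14, 0.79 for S100a10, 0.77 for S100a9 and S100a11, 0.72 for S100a13 and 0.71 for S100a3. It was 0.38 for S100a8, 0.05 for S100a4 and -0.0059 for S100a1.

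S100a6 also varied with other members among EV tumours. Pearson's r was 0.95 with S100a13 (permutation test, p = 0.00015, adjusted p = 0.0311; rho 0.84, p = 0.00373, adjusted p = 0.131) and 0.91 with S100a11 (permutation test, p = 0.00027, adjusted p = 0.0311; rho 0.89, p = 0.00106, adjusted p = 0.0875). S100a11 and S100a13 had r = 0.89 (permutation test, p = 0.00071, adjusted p = 0.0364; rho 0.84, p = 0.00385, adjusted p = 0.131). Without the 2 tumours farthest from the median of the first-named member, r was 0.81, 0.90 and 0.60, in that order. These were the 3 of 45 member pairs that passed in EV tumours by Pearson's r; 0 of 45 passed in p95HER2 tumours, and none passed by Spearman's rho in either group. S100a6 with the keratinocyte level in EV tumours (r = 0.85, permutation test, p = 0.00134, adjusted p = 0.044; rho 0.82, adjusted p = 0.157; r without 2 tumours 0.52) and S100a10 with the neutrophil level in p95HER2 tumours (r = 0.90, exact permutation p = 0.000645, adjusted p = 0.0364; rho 0.93, adjusted p = 0.128; r without 2 tumours 0.64) rested in part on the tumours left out. Genes in one library share its depth and cell makeup, and their part in these correlations was not tested.

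S100a1, best known as a regulator of calcium cycling and contraction in muscle, and S100a13, which takes part in the release of FGF1 and interleukin-1 alpha, lie head to head. Their annotated starts in RefSeq are 104 bases apart, and the stretch that their promoter windows share is shown for that reason, on the plus strand of chr3:90514281-90514484 (GRCm38.p6), with the bases between the starts in capitals.
S100a1 and S100a13: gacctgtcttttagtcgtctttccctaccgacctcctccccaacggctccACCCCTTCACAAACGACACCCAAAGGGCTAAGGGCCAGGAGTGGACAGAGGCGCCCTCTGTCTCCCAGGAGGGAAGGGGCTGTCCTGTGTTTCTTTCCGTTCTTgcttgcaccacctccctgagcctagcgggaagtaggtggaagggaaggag
S100a1 ran from 32.4 through 38.95 to 47.4 CPM in p95HER2 tumours, against 27.3, 35.4 and 43.8 CPM in EV tumours. Of the 8 p95HER2 tumours 6 lay above the EV median, and the log2 fold change of 0.15 ± 0.08 (SE) was not called (BH-adjusted p = 0.273, edgeR). S100a13 ran from 12.5 through 17.0 to 19.5 CPM in p95HER2 tumours, against 12.7, 15.7 and 24.8 CPM in EV tumours, and its log2 fold change was -0.03 ± 0.11 (SE; BH-adjusted p = 0.892, edgeR). The groups overlapped for both genes. The pair was not called as correlated: r was 0.12 in p95HER2 tumours (exact permutation, adjusted p = 0.883; rho 0.21, adjusted p = 0.791; r without 2 tumours 0.40) and 0.51 in EV tumours (permutation test, adjusted p = 0.3001; rho 0.26, adjusted p = 0.689; r without 2 tumours -0.41). Skeletal muscle markers, at a level of 6.63 ± 1.03 in p95HER2 and 7.47 ± 1.62 in EV tumours, varied widely in these samples (exact permutation, adjusted p = 0.288). The difference of -0.84 includes EV 1, the lowest EV tumour at 3.20, and was not tested without it. The medians were 6.81 in p95HER2 and 8.10 in EV tumours, and all 8 p95HER2 tumours lay below the EV median. All 10 muscle markers had a negative log2 fold change, though none was called. With their level as a covariate S100a1 was not called either, and the part of muscle in S100a1 was not tested.

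S100a4 and S100a3 were at the limit of detection. S100a4 (metastasin), a marker of fibroblasts and motile cells that binds non-muscle myosin, had 1 to 16 reads in p95HER2 tumours and 6 to 26 reads in EV tumours. Its level was 0.262 ± 0.168 CPM in p95HER2 and 0.435 ± 0.210 CPM in EV tumours, and 5 of 10 EV tumours lay above all p95HER2 tumours, without a call (log2 fold change -0.72 ± 0.39 SE; BH-adjusted p = 0.247, edgeR). Of the 584 exon bases of S100a4, 302 are shared on the same strand with the annotated gene Gm42674, which has 1 read in the table. How reads in shared exons were counted is not stated in the labels, and this low level is uncertain. Fibroblast markers, of which 1 of 10 (Postn) was called lower, stood at a level of 6.42 ± 0.30 in p95HER2 and 6.74 ± 0.29 in EV tumours (exact permutation, adjusted p = 0.0641), and their part in S100a4 was not tested. S100a3, known from the hair cuticle, had 1 to 24 reads in p95HER2 and 7 to 30 reads in EV tumours (0.355 ± 0.231 and 0.321 ± 0.187 CPM, edgeR BH-adjusted p = 0.862). Of 8 hair shaft markers 1 was tested, Tchh, and it was not called; Krt31 and Krt82 were at 0 in all 18 tumours.

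Per kilobase of annotated exon, the order of the members by their mean level was the same in both groups. S100a11 stood first with 425 ± 64.6 CPM per kb in p95HER2 and 384 ± 60.1 CPM per kb in EV tumours, followed by S100a10 (124 ± 27.8 and 121 ± 18.6 CPM per kb), each above the next gene in every tumour. S100a6 (78.6 ± 30.7 and 78.4 ± 18.6 CPM per kb) and S100a1 (55.9 ± 6.64 and 50.4 ± 7.23 CPM per kb) changed places in some p95HER2 tumours: S100a6 was the higher in 5 of 8, against 10 of 10 EV tumours. S100a8 came closest to S100a13 in p95HER2 tumours, 21.8 ± 4.73 against 23.2 ± 3.38 CPM per kb, and S100a13 was the higher in 5 of 8 of them. In EV tumours S100a8, at 11.7 ± 2.62 CPM per kb, lay below S100a13 in 10 of 10 and above S100a14 in 9 of 10. S100a14 and S100a9 crossed in p95HER2 tumours (3.57 ± 1.52 and 3.03 ± 2.41 CPM per kb, S100a14 the higher in 6 of 8). S100a9 and S100a4 crossed in EV tumours (0.806 ± 1.09 and 0.745 ± 0.360 CPM per kb, S100a9 the higher in 3 of 10). S100a3 was last in both groups, over an exon length of 5660 bases against 584 for S100a4. In CPM without the division by length, S100a3 lay above S100a4 in p95HER2 tumours (0.355 and 0.262 CPM) and below it in EV tumours (0.321 and 0.435 CPM). The 10 members together took 0.0435% to 0.0719% of all counts in p95HER2 tumours and 0.0453% to 0.0726% in EV tumours.

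Outside the 10 members, 7 other S100 genes were in the table, of which 3 passed the filter and 0 were called by edgeR (1 had an unadjusted p under 0.05). S100a16, a widely expressed member of the cluster, stood at 78.7 ± 4.93 CPM in p95HER2 and 86.2 ± 14.5 CPM in EV tumours (edgeR BH-adjusted p = 0.311). S100a7a, the mouse psoriasin gene, had 0.531 ± 0.338 and 0.280 ± 0.134 CPM in p95HER2 and EV tumours (log2 fold change 0.92 ± 0.35 SE; BH-adjusted p = 0.0945, edgeR), with p95HER2 8 highest at 1.26 CPM. S100b, a gene of glia and melanocytes, had 1.15 ± 0.58 and 0.939 ± 0.399 CPM (BH-adjusted p = 0.592, edgeR). Of 7 Schwann cell and melanocyte markers 5 were tested and 1, Mbp, was called lower, with a level of 0.53 to 0.79 in p95HER2 and 0.62 to 1.19 in EV tumours (exact permutation, adjusted p = 0.00503). S100a2, S100a5, S100g and S100z had at most 11 reads in any tumour.

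**Figure D4:**
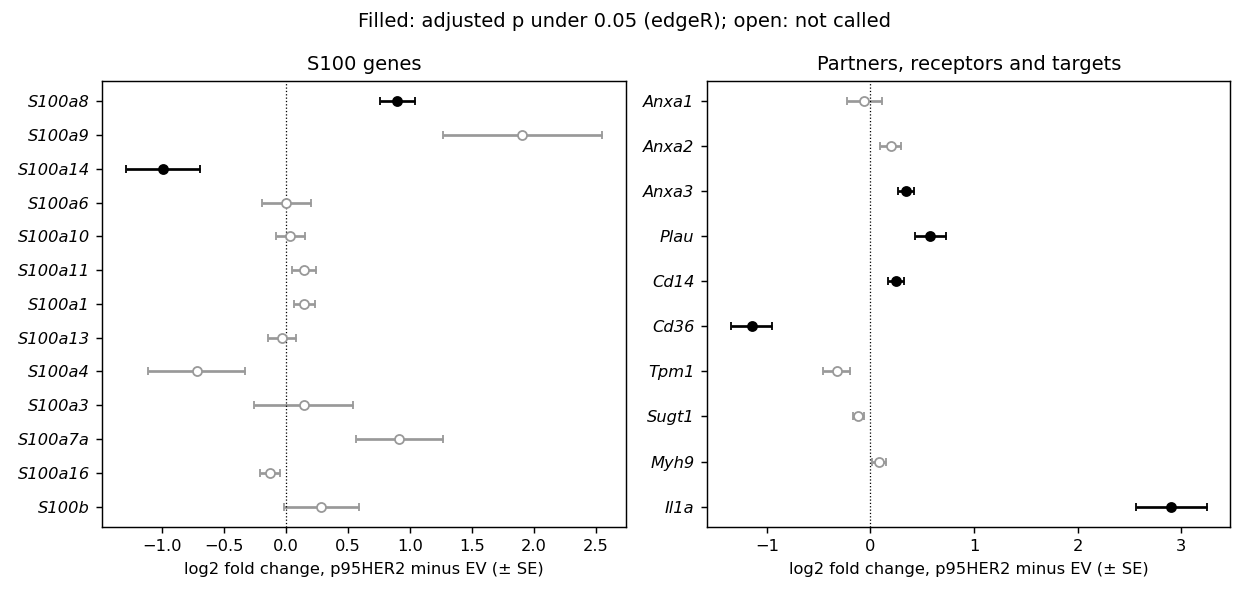
Log2 fold change (p95HER2 minus EV, ± SE) of the S100 genes (left) and of partners, receptors and targets of S100 proteins (right); filled points have an edgeR BH-adjusted p under 0.05. Among the S100 genes S100a8 (0.90) and S100a14 (-0.99) are filled, and on the right Il1a has the largest value (2.90).

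Among genes whose products bind S100 proteins or act with them, 34 of 36 listed were tested, 4 were called higher and 1 lower, a share of 14.7% against 10.2% over all genes. Of 9 annexins, the membrane-binding partners of several S100 proteins, 1 was called: Anxa3 stood at 112 ± 9.33 CPM in p95HER2 and 88.5 ± 14.2 CPM in EV tumours (log2 fold change 0.34 ± 0.08 SE; BH-adjusted p = 0.00969, edgeR). The S100a10 partner Anxa2, named outside the rule for named genes and after its value was seen, stood at 421 ± 64.4 and 368 ± 66.4 CPM (BH-adjusted p = 0.232, edgeR), and the S100a11 partner Anxa1 at 249.9 ± 50.2 and 260.1 ± 90.2 CPM (BH-adjusted p = 0.871, edgeR). Of 6 tested genes of the annexin A2 complex and plasmin activation, Plau, the urokinase activator of plasminogen, rose to 28.5 ± 9.65 CPM in p95HER2 tumours, against 19.1 ± 2.85 CPM in EV tumours (log2 fold change 0.58 ± 0.15 SE; BH-adjusted p = 0.0193, edgeR).

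Of 8 receptor and signalling genes, Cd36, a fatty acid carrier that also binds calprotectin, fell to 5.82 ± 1.44 CPM in p95HER2 tumours, against 12.9 ± 4.07 CPM in EV tumours (log2 fold change -1.15 ± 0.20 SE; BH-adjusted p = 0.00152, edgeR), with no overlap between the groups. All 6 adipocyte markers, a cell type that carries Cd36, were called lower as well, with a level of 0.22 to 1.67 in p95HER2 and 1.297 to 3.60 in EV tumours; no marker was at 0 in a whole group, and their part in Cd36 was not tested. With the macrophage level as a covariate Cd36 was not called (log2 fold change -0.79, BH-adjusted p = 0.164, edgeR), and neither were Anxa3 (0.28, BH-adjusted p = 0.242, edgeR) and Cd14 (0.16, BH-adjusted p = 0.518, edgeR). That fit called 180 genes in all, against 1743 without the covariate, and the part of macrophages in these genes was not tested. Cd14, a co-receptor of TLR4, rose to 188 ± 23.9 CPM in p95HER2 tumours, against 159 ± 18.3 CPM in EV tumours (log2 fold change 0.24 ± 0.08 SE; BH-adjusted p = 0.045, edgeR). That call ended without any of 11 tumours (edgeR BH-adjusted p up to 0.0876): p95HER2 1, 2, 3, 4 or 8, or EV 4, 5, 6, 7, 9 or 10. Of 3 genes whose products are released with S100a13, Il1a, encoding interleukin-1 alpha, rose to 3.45 ± 2.08 CPM in p95HER2 tumours, against 0.458 ± 0.232 CPM in EV tumours (log2 fold change 2.90 ± 0.34 SE; BH-adjusted p = 3.15e-05, edgeR), without overlap. Il1a and Plau kept their calls with the macrophage level as a covariate (3.33, BH-adjusted p = 0.000113, and 0.90, BH-adjusted p = 0.0109, edgeR).

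Of 9 cytoskeletal and intracellular targets, 0 were called by edgeR (2 had an unadjusted p under 0.05). Those of smallest adjusted p were Tpm1, a tropomyosin, at 551 ± 128 CPM in p95HER2 and 691 ± 130 CPM in EV tumours (edgeR BH-adjusted p = 0.119), Sugt1, a co-chaperone that binds S100a6, at 87.2 ± 2.99 and 94.5 ± 9.51 CPM (BH-adjusted p = 0.156, edgeR), and Myh9, the non-muscle myosin heavy chain that S100a4 binds, at 566 ± 35.2 and 536 ± 67.2 CPM (BH-adjusted p = 0.488, edgeR).

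Within 1 Mb of a member on chromosome 3, 41 other genes were tested, of which 3 were called higher and 2 lower (12.2%, against 10.2% over all genes), with a median log2 fold change of 0.01. Ube2q1 and Rab13 rose by 0.16 and 0.23 on the log2 scale, and Creb3l4 and Tdrkh had log2 fold changes of -0.96 and -0.58. The call of Rab13 was lost in 14 of the 18 fits that each omitted 1 tumour, EV 1 and p95HER2 1 among them. Without both of these tumours its log2 fold change was 0.22 and not called (edgeR BH-adjusted p = 0.066).

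The genes whose levels followed each called member most closely from tumour to tumour were named by the mean of Pearson's r within p95HER2 tumours (n = 8) and within EV tumours (n = 10), over 13077 other genes of mean log2 CPM of at least 1. For S100a8 these were Psma2 (0.88), Ccdc12 (0.86) and Rpl30 (0.85), and the mean r was 0.88, 0.86 and 0.84 without EV 1. For S100a14 these were Anxa1 (0.93), Zfp703 (0.91) and Slc25a24 (0.90), but the mean r was 0.71, 0.52 and 0.70 without EV 1, and r within the other 9 EV tumours was 0.49, 0.0859 and 0.51. As the highest of 13077 values, these are descriptions with no test. None of these 6 genes was itself called between the groups (edgeR BH-adjusted p from 0.211 to 0.908).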

How the data were processed

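RNA of 18 tumours was sequenced from directional mRNA libraries. The authors deposited 1 table of raw read counts per gene; per the submitters' processing notes, STAR 2.5 and HTSeq 0.6.1 were used with the build mm10, and they state neither the annotation release nor the strand option. Symbols, coordinates and exon lengths came from GENCODE M21, which has a model for 54495 of 54532 gene IDs. No read was counted for 22778 genes.

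Counts were tested with edgeR 4.0.16 in R 4.3.3: filterByExpr (minimum count 10, minimum total 15), TMM scaling, a robust quasi-likelihood F-test of p95HER2 against EV over all 18 tumours, and BH adjustment over 17123 genes. SE and intervals on the log2 scale are approximate, from that test. CPM use TMM-scaled totals. Levels of a marker list are the mean log2(CPM + 0.5). Single values were tested by exact permutation over 43758 assignments; correlations were tested within each group (40320 orderings for p95HER2, 100000 resamples for EV). Alternatives used DESeq2 1.42.0, limma 3.58.1, other scalings, filters and covariates, and leaving out each tumour. The gene test was first tested on simulated data. Of 153 library pairs, the most alike differed by a chi-square of 9.72 per gene, well past sampling noise, so each library counted as 1 sample.

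The S100A members and all gene lists were chosen with earlier results of these data known. Named genes were the members, the other S100 genes, from each partner list the called genes or else up to 3 of smallest adjusted p, from each marker list up to 3 of smallest adjusted p, the called neighbours (1 of them is not reported here), the 3 genes most like each called member, and Erbb2. Anxa2 and some markers (Epcam, Mmp9, Cxcr2, Ly6g, Mpo, Krt1, Krt31 and Krt82, and called ones outside the first 3) were named in addition, after their values were seen.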

Additional observations from a re-analysis of the deposited data

Results flagged for a closer look

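In 9 of 48 sets of values examined, a tumour lay farther from the others of its group than Dixon's criterion allows, where chance alone flags about 1 in 20 sets. EV 1 accounted for 8 of these. It was the highest EV tumour for S100a3 (0.817 CPM, the nearest other EV tumour at 0.388), S100a6 (170.5 CPM, nearest 120.5), S100a10 (204 CPM, nearest 153), S100a14 (33.7 CPM, nearest 12.4) and S100a16 (123 CPM, nearest 90.7). It was also the highest for the keratinocyte level (3.84, nearest 1.37) and the epithelial level (7.37, nearest 6.92), and the lowest for the skeletal muscle level (3.20, nearest 6.88). In the p95HER2 group, S100a7a was highest in p95HER2 8 (1.26 CPM, nearest 0.642).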

How the results depend on the processing

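No paired analysis was possible because the labels give no replicate numbers shared by the groups. S100a8 was called higher in 32 of 33 alternative fits, the exception being a test against a 1.5-fold change (edgeR glmTreat, adjusted p = 0.622). Members called higher numbered 2, the second being S100a9, under a non-robust fit, with the neutrophil, epithelial or keratinocyte level as covariate, under DESeq2, limma voom and the exact permutation test, and without EV 1 and p95HER2 1 together, an alternative chosen after seeing the data; glmTreat gave 0, and leaving out 1 tumour gave 1 to 2. Members called lower numbered 0 with no filter, under glmTreat, with the macrophage level, and without EV 1 and p95HER2 1; leaving out 1 tumour gave 0 to 1. Partners called higher numbered 1 under glmTreat, 2 with the macrophage and 7 with the keratinocyte level; those called lower numbered 0 under glmTreat and with the macrophage level, 2 with the muscle level and under limma voom, and 1 to 2 when 1 tumour was left out. Neighbours called higher numbered 0 under glmTreat and 1 with the macrophage level; those called lower numbered 1 with no filter and 0 with a 1 CPM filter, under glmTreat and with the macrophage level. Over all genes, glmTreat called 43 higher and 9 lower, the macrophage level 140 and 40, and the keratinocyte level gave 1248 lower; leaving out 1 tumour gave 489 (without p95HER2 2) to 1130 lower. With 5 counts added, the S100a8 to S100a9 log2 ratio differed by -1.02. By Spearman's rho 0 member pairs and 1 relation with another measure passed, and 2 of the latter passed with log2(CPM + 2). Signs turned only for uncalled members: S100a3 to -0.0596 (macrophage), -0.0060 (muscle) and -0.21 (limma voom), and -0.0710 to 0.41 on leaving out 1 tumour; S100a4 to 0.14 (macrophage); S100a6 to -0.0023 (library totals), -0.0521 (neutrophil), -0.0256 (epithelial), -0.0234 (muscle), -0.13 (limma voom) and -0.0557 (permutation), and -0.13 to 0.10; S100a10 -0.0393 to 0.0980; S100a13 to 0.11 (keratinocyte) and 0.0757 (without EV 1 and p95HER2 1), and -0.0724 to 0.0437. The likeness values without EV 1 were also added after seeing the data. The causes of these changes were not tested. Read depth limits S100a3, S100a4 and S100a9, which had as few as 1 read in a tumour.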
